A study of Sus scrofa with 24 samples.

Results

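Male pig embryos of the IS21SE sows were compared with male embryos of control sows at day 30 of gestation, gene by gene across the transcriptome. The comparison was made on 6 of the 24 two-colour arrays of the series, chosen by their labels as those that hold male IS21SE RNA against male control RNA. They carry 3 biological replicates, each measured on 2 arrays with the dyes exchanged. The sows were primiparous, that is, sows of a first litter. The series describes oestrus stimulated during lactation, with intermittent suckling, and then mating by either of the strategies IS21SE and IS21FE; the letters of both names are left unexplained. The series names its control group C28. A sample is RNA from a pool of 3 embryos of the same sex from 1 sow. The labels count 6 control sows and 3 sows for each strategy, which is enough for every replicate to have been set against a different control pool. The labels give no breed. Males of IS21FE sows (3 replicates, 6 arrays) and females of IS21SE sows (3 replicates, 6 arrays) are used below for side-by-side values and for the tests of the differences. The male IS21FE pools also enter the p-values against control, through the spread and the choice of genes tested. Each pool holds the embryos of a single sow, so the spread between replicates includes the spread between sows. It also holds any difference between control pools and the noise of arrays and dyes. The p-values against control rest on this whole spread, pooled over both male groups.

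By day 30 the pig embryo is at the turn from embryo to fetus and its organs have formed. The heart beats and its chambers are muscular, and the liver is large and both secretes plasma proteins and makes red blood cells. The mesonephros serves as the kidney at this stage, and the male gonad has begun to form a testis with its own hormones. In RNA of whole embryos a gene made in a single organ is read through that organ's share of the body. A difference in such a gene can therefore come from fewer cells of a type or from less RNA per cell, and these cannot be told apart in pooled whole embryos.

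Values are log2 ratios of the IS21SE pool over the control pool, with arrays that carry the control RNA in the dye Cy5 multiplied by -1. A ratio of 1 is a 2-fold difference. The deposited table does not say whether its columns hold Cy5 over Cy3, so ratios are called positive or negative: positive means more RNA in the IS21SE pool if the columns hold Cy5 over Cy3, and less if they hold the opposite. Between 36291 and 37257 of the 43749 probes had a value on these 6 arrays, and the SD of the probes' ratios ran from 1.01 to 1.12. Across probes, the arrays of the same replicate correlated at a Spearman's rho of 0.053 to 0.11, arrays of different replicates with the same dye order at 0.10 to 0.19, and arrays differing in both at -0.064 to 0.071. Arrays of the same dye order thus resembled each other more than arrays of the same RNA, and a gene is described as having a single sign only where all 6 arrays gave it. The replicate means correlated at 0.094 to 0.22. Of the Y-linked genes listed only EIF1AY was measured. It had -0.064, 0.15 and -0.066 in replicates 1, 2 and 3, a mean near 0 between pools labelled male. Female IS21SE pools also gave a ratio for this gene, with a mean of 0.14, so a value near 0 does not check the sex of the pools. A ratio does not show the level of the gene, so the label of either pool alone was not checked. With 6 arrays, precision is limited by their number.

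No gene could be called. In the limma fit across 9413 genes 0 (0.0%) were under an adjusted p of 0.05, the lowest being 0.535. Unadjusted, 838 genes (8.9%) lay under 0.05, of which 450 were positive (4.78%) and 388 negative (4.12%). That number was 543 without replicate 1, 532 without replicate 2 and 593 without replicate 3. With no array turned, so that the mean of a replicate reads the dye and not the treatment, 1078 genes lay under 0.05. The mean ratio was above 0 in 49.1% of genes, and the median over all genes was -0.0046. From the 5th to the 95th percentile the mean ratios ran from -0.54 to 0.54, with a median SD of 0.22 between replicates. A mean ratio of more than 2-fold in either direction was found for 216 genes (2.29%). Among the 8773 genes measured on all 6 arrays, 864 had a single sign (9.85%): 511 were positive on all 6 (5.82%) and 353 negative on all 6 (4.02%). These shares are the background against which counts in gene groups are given below. Below, "past the unadjusted threshold" means an unadjusted p under 0.05 in this fit, and since no gene passed after adjustment, no gene is described as changed.

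The positive gene with the smallest p among those positive on all 6 arrays was APOE, the apolipoprotein that carries cholesterol and is taken up by lipoprotein receptors. Its ratios were 0.80, 0.80 and 0.67 in replicates 1, 2 and 3, a mean of 0.76 ± 0.076 (SD, n = 3). The arrays with IS21SE RNA in Cy5 gave 1.02, 1.05, 0.78 and the exchanged arrays 0.59, 0.56, 0.57, and its 3 probes had means of 0.64 to 0.96. SAL1, salivary lipocalin, a small carrier protein of the lipocalin family that in pigs is also made by the uterus, had the largest mean of the genes named here. Its ratios were 3.42, 2.62 and 1.46, a mean of 2.50 ± 0.98 (SD, n = 3) or 5.66-fold, on a single probe. All 6 SAL1 arrays lay above 1, and replicate 1 lay highest. Under a fit to single arrays with a term for the dye, APOE and SAL1 were the 2 genes past an adjusted p of 0.05 (limma adjusted p = 0.0381 each). In that fit the arrays of a replicate enter with a correlation of only 0.235, and the adjusted p in the fit to replicates was 0.535 for both.

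The other positive genes by the same rule fall into several roles. ADIPOR1, a receptor for the fat hormone adiponectin, had 0.74, 0.79 and 0.71 (0.75 ± 0.042, SD, n = 3). Its replicates lay close together, but its arrays did not. They gave 1.2, 0.61, 1.1 with IS21SE RNA in Cy5 and 0.24, 0.98, 0.32 with the dyes exchanged, and its 3 probes had means of 0.35 to 1.05. ENG, endoglin, an endothelial co-receptor for TGF-beta and BMP ligands, had 0.56, 0.55 and 0.72 (0.61 ± 0.097). TGFBI, a matrix protein induced by TGF-beta, had 0.43, 0.44 and 0.63 (0.50 ± 0.11). MIOX, the enzyme of the kidney tubule that opens the myo-inositol ring, had 0.77, 0.92 and 0.36 (0.68 ± 0.29) with its 6 probes between 0.60 and 0.79. A replicate at or below 0 was not possible for these 4 genes, since the rule asked for 6 positive arrays. GPR39, a zinc-sensing receptor, had 0.48 ± 0.073, and CIB2, a calcium-binding protein of sensory hair cells, had 0.45 ± 0.045. BFAR, an apoptosis regulator of the endoplasmic reticulum, had 0.54 ± 0.15, and MAPKBP1, a scaffold of the JNK pathway, had 0.59 ± 0.19. ARMC5, known as a tumour suppressor of the adrenal cortex in humans, had 0.83 ± 0.23, ZNF622 0.57 ± 0.20 and NXPH4, a neurexophilin, 0.76 ± 0.34. Agreement between probes was poor for LGALS9, the lectin galectin 9, whose mean of 0.53 ± 0.13 stood over 10 probes from -0.77 to 2.22. The kinase gene DGKD, which acts on the lipid messenger diacylglycerol, had 1.74 ± 0.63 (all SD, n = 3). Its ratio depended on the dye, at 0.54, 1.04, 0.50 with IS21SE RNA in Cy5 and 2.75, 3.77, 1.81 in the exchanged arrays.

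The negative gene with the smallest p among those negative on all 6 arrays was N6AMT1, a methyltransferase that in humans modifies a translation release factor. Its ratios were -2.08, -1.51 and -1.38 in replicates 1, 2 and 3, a mean of -1.66 ± 0.37 (SD, n = 3), on a single probe. PDE1C, a phosphodiesterase that ends cyclic nucleotide signals, had -0.84, -0.80 and -1.32 (-0.99 ± 0.29). EFNA3, an ephrin ligand of axon guidance, had -1.23, -1.54 and -1.99 (-1.59 ± 0.38), but its arrays ran from -3.04 to -0.12. CALB1, calbindin, a calcium buffer of the kidney tubule and of neurons, had -0.88, -0.64 and -0.75 (-0.76 ± 0.12), and its 6 arrays ran only from -1.01 to -0.59. IFITM1, an interferon-induced membrane protein also found in germ cells and early embryos, had -0.86, -1.25 and -0.81 (-0.98 ± 0.24). Each of these 5 genes lay below -0.6 in every replicate. PI15, a secreted protein of the CAP family, had -0.67 ± 0.16, TROVE2, the Ro60 protein that binds small RNAs, had -0.61 ± 0.12, and CLK1, a kinase of splicing factors, had -0.66 ± 0.29 with all 7 probes negative. RRS1, a factor for assembly of the large ribosomal subunit, had -0.75 ± 0.34, and MRS2, the magnesium channel of mitochondria, had -0.51 ± 0.17. CACNA2D4, a calcium channel subunit of the retina, had -1.29 ± 0.60, ARHGAP8 -0.56 ± 0.26, PHTF2 -0.50 ± 0.070 and UACA -0.58 ± 0.20 (all SD, n = 3). PHTF2 and UACA each had a probe near 0, at -0.041 and -0.044. TSPAN18, a tetraspanin, had the smallest p of all genes with -1.12, -1.66 and -0.96, but 1 of its 6 arrays was positive.

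**Figure D1:**
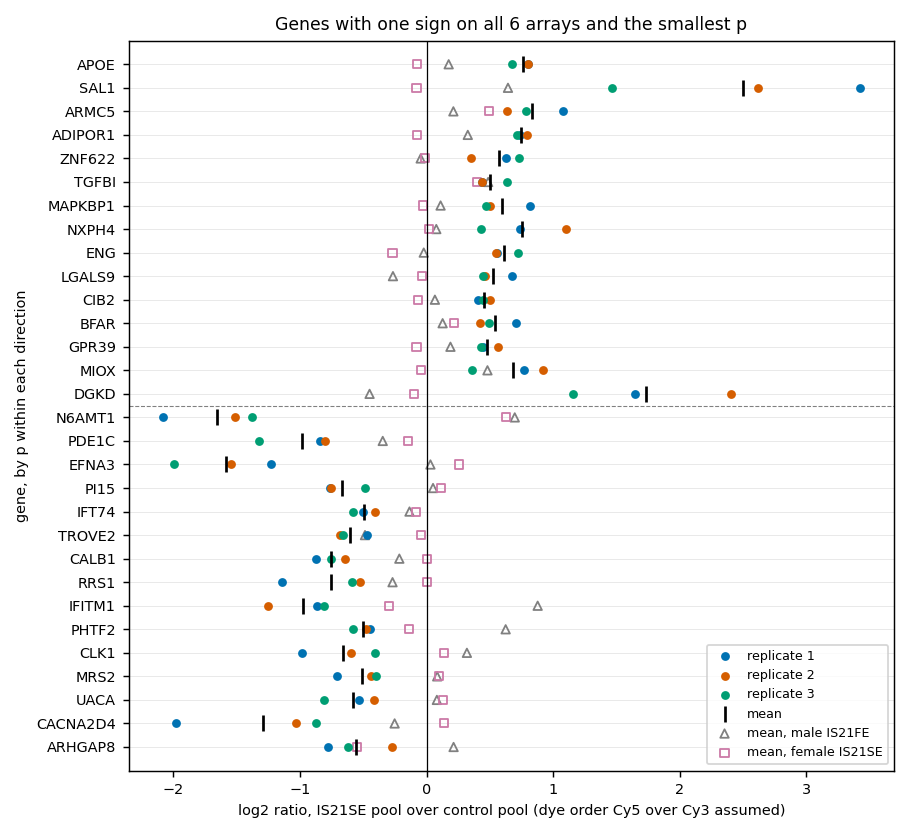
Log2 ratio (x axis) of the 15 positive and 15 negative genes with the smallest p among genes of a single sign on all 6 arrays (y axis). Filled points are the 3 replicates of male IS21SE pools, bars their mean, triangles the mean of male IS21FE pools and squares that of female IS21SE pools, and SAL1 spreads from 1.46 to 3.42 while ADIPOR1 and CIB2 keep their 3 replicates within 0.09 of each other. The single arrays of ADIPOR1, which are not drawn, ran from 0.24 to 1.2.

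Genes were then read in lists by tissue and function. Of 49 lists with at least 8 genes tested, 25 had medians of opposite sign in the arrays with IS21SE RNA in Cy5 and in the exchanged arrays. The median kept its sign in both dye orders and with each replicate left out in 19 lists, among them heart muscle, liver, lipocalins and red blood cell on the positive side and cilium and centrosome on the negative side. The others changed sign in at least 1 of these settings.

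Genes of the heart muscle lay mostly on the positive side. Of 26 tested, 21 were positive, with a median ratio of 0.20. Past the unadjusted threshold were 5 positive and 0 negative heart genes, beside 4.78% and 4.12% of all genes. Of the 23 measured on all 6 arrays, 6 were positive on all 6 and 0 negative, beside 5.82% and 4.02%. The heart hormones stood highest. NPPA, the atrial natriuretic peptide, had 0.76, 1.05 and 0.68 in replicates 1, 2 and 3, a mean of 0.83 ± 0.19 (SD, n = 3), and the arrays gave 0.76, 1.31, 0.64 with IS21SE RNA in Cy5 and 0.76, 0.79, 0.72 with the dyes exchanged. NPPB, the B-type natriuretic peptide, had 0.85, 1.21 and 0.87, a mean of 0.98 ± 0.20 or 1.97-fold. Both peptides are released by stretched heart muscle and relax vessels and promote salt excretion in the adult. All 12 values of the pair on single arrays were positive, and replicate 2 lay highest in both. CORIN, the protease that activates these peptides, had 0.22, 0.26 and 0.25 (0.24 ± 0.021), with 4 of 6 arrays positive.

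Contractile proteins of the heart followed, with 11 of 12 positive. MYL7, the atrial regulatory light chain of myosin, had 0.34, 1.08 and 0.40 (0.61 ± 0.41, SD, n = 3). MYL3, the ventricular essential light chain, had 0.35, 1.07 and 0.38 (0.60 ± 0.41), and MYBPC3, the cardiac myosin binding protein C, had 0.37, 0.73 and 0.50 (0.53 ± 0.18). In these 3 genes all arrays were positive, and replicate 2 lay above the others. ACTN2, the alpha-actinin of the Z disc, was also positive on all 6 arrays (0.29 ± 0.24). TNNI3, cardiac troponin I, had 0.030, 0.99 and 0.31, and MYH7, the slow myosin heavy chain, had 0.71, 0.74 and -0.072, so that a replicate of each lay near 0. The negative contractile gene was TCAP, the telethonin of the Z disc, at -0.24 ± 0.21. Among the genes of calcium handling and conduction the phospholamban gene PLN had 0.34 ± 0.52, the pacemaker channel gene HCN4 0.15 ± 0.11, and the connexin gene GJA5 -0.58 over 2 replicates. Of the 6 transcription factors of the heart 3 were positive, among them NKX2-5 (0.18 ± 0.59) and GATA6 (0.27 ± 0.29), and HAND2 had -0.28 ± 0.60. TBX5 and TBX20 were measured in 2 replicates each, and TBX5 had 2.27 and -2.38 in replicates 1 and 3.

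The median of the heart genes was 0.18 in replicate 1, 0.45 in replicate 2 and 0.12 in replicate 3. Without replicate 2 it was 0.15, with 18 of 24 genes positive. The positive genes past the unadjusted threshold numbered 6 without replicate 1, 2 without replicate 2 and 5 without replicate 3. The median was 0.23 from the arrays with IS21SE RNA in Cy5 alone and 0.25 from the exchanged arrays alone. The same genes had a median of -0.10 in male IS21FE pools, with 6 of 26 positive, and of -0.086 in female IS21SE pools, with 7 of 26 positive. Tested directly, the difference between male IS21SE and male IS21FE passed the unadjusted threshold in 560 of 9413 genes (5.95%), and 4 of the 26 heart genes were among them, all with the higher ratio in male IS21SE. The difference between male and female IS21SE did so in 738 of 9196 genes (8.03%) and in 5 of 25 heart genes, all with the higher ratio in males. NPPB had -0.31 ± 0.58 in male IS21FE and -0.53 ± 0.36 in female IS21SE pools (SD, n = 3), and the differences were 1.29 (limma adjusted p = 0.810) and 1.51 (limma adjusted p = 0.444). After adjustment 0 genes (0.0%) passed in either difference. Skeletal muscle, which shares much of its contractile machinery with the heart, gave 9 positive genes of 22 and a median of -0.047, which was -0.17 from the arrays with IS21SE RNA in Cy5 and 0.041 from the exchanged arrays. NEB, nebulin, the ruler of the thin filament of skeletal muscle, had -0.43, -0.78 and -0.68 (-0.63 ± 0.18) and was negative on all 6 arrays. RYR1, the calcium release channel of skeletal muscle, had -0.27 ± 0.15, which was 0.32 from the arrays with control RNA in Cy5 alone with every probe they measured, and MYL1, the fast light chain, had -0.20 ± 0.058 (SD, n = 3).

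**Figure D2:**
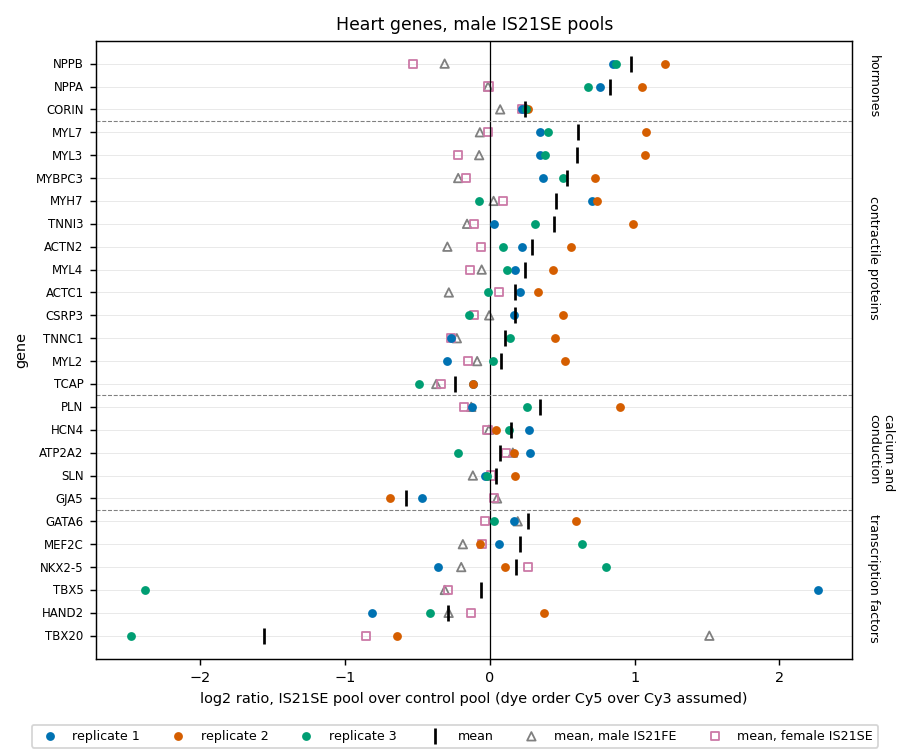
Log2 ratio (x axis) of the 26 heart genes tested (y axis), grouped by role. Filled points are the 3 replicates of male IS21SE pools, bars their mean, and open symbols the means of the 2 other groups; NPPA, NPPB, MYL7, MYL3 and MYBPC3 have all 3 replicates above 0, and the open symbols of most contractile genes lie at or below 0.

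Genes of the liver were positive in larger number. Of 66 tested, 53 were positive, with a median of 0.31. Past the unadjusted threshold were 11 positive and 2 negative liver genes, beside 4.78% and 4.12% of all genes. Of the 63 measured on all 6 arrays, 20 were positive on all 6 and 0 negative on all 6, beside 5.82% and 4.02%. The median was 0.45, 0.28 and 0.14 in replicates 1, 2 and 3. It was 0.27 from the arrays with IS21SE RNA in Cy5 and 0.29 from the exchanged arrays. Without replicate 1, which had the highest median, it was 0.23, with 49 of 64 genes positive. The positive genes past the unadjusted threshold numbered 4 without replicate 1, 7 without replicate 2 and 9 without replicate 3. Male IS21FE pools had a median of 0.12 over these genes, and female IS21SE pools 0.091. The difference from male IS21FE passed the unadjusted threshold in 4 liver genes on the higher and 1 on the lower side of 66, beside 5.95% of all genes, and that from female IS21SE in 7 of 65, all with the higher ratio in males, beside 8.03%.

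Among plasma proteins, which the liver secretes into the blood, 24 of 30 were positive. On all 6 arrays 11 of the 30 were positive, beside 5.82% of all genes. Clotting factors and their regulators were among them. F10, coagulation factor X, had 0.31, 0.50 and 0.68 in replicates 1, 2 and 3 (0.50 ± 0.18, SD, n = 3). SERPIND1, heparin cofactor II, an inhibitor of thrombin, had 0.80, 0.57 and 0.32 (0.56 ± 0.24), and PLG, plasminogen, the precursor of the clot-dissolving protease, had 0.71, 0.22 and 0.57 (0.50 ± 0.25). HRG, the histidine-rich glycoprotein, had 0.68, 0.54 and 0.52 (0.58 ± 0.087). In these 4 genes the replicates lay between 0.22 and 0.80. ITIH4, a chain of the inter-alpha-trypsin inhibitors, had 0.69 ± 0.45, ORM1, an acute phase lipocalin, had 0.50 ± 0.22, and HPX, hemopexin, which carries free heme, had 0.56 ± 0.46. The fibrinogen chains did not pass the unadjusted threshold, with FGA at 0.31 ± 0.28, FGB at 0.14 ± 0.27 and FGG at 0.25 ± 0.37. AFP, alpha-fetoprotein, the main plasma protein of the fetus, had 0.46, 0.48 and -0.037 (0.30 ± 0.29), and TF, transferrin, had 0.30 ± 0.32. Some abundant plasma proteins went the other way. CP, ceruloplasmin, the copper carrier, had -0.55, -0.77 and -0.14 (-0.49 ± 0.32), and ALB, albumin, had -0.70, -1.22 and 0.39 (-0.51 ± 0.82, n = 3), with replicate 3 on the other side of 0. HP, haptoglobin, had 1.02, -1.17 and -0.75 and C3, the central complement component, 1.72, -2.57 and 0.072, so that the sign of both differed between replicates.

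Apolipoproteins, the protein shells of lipoprotein particles, were positive in 9 of 12 genes. Beside 5.82% of all genes, 7 of the 11 apolipoproteins measured on all 6 arrays were positive on each. Besides APOE these were APOA1, the main protein of high-density lipoprotein (0.57, 0.64 and 0.48, 0.56 ± 0.080), APOA2 (0.63 ± 0.45), APOC3, an inhibitor of lipoprotein lipase (0.31 ± 0.12), APOC4 (0.56 ± 0.36), APOD (0.54 ± 0.56) and APOM, the carrier of sphingosine phosphate (0.41 ± 0.017, SD, n = 3). APOM had 3 replicates between 0.40 and 0.43, whereas APOD ran from 0.058 to 1.16 and had -0.22 when the arrays with IS21SE RNA in Cy5 were used alone with every probe they measured. APOA4, an apolipoprotein of the gut and liver, was negative with -1.63 and -1.35 in replicates 1 and 3, and its 4 measured arrays disagreed in sign. Metabolic enzymes of the liver were positive in 15 of 15 genes. Beside 5.82% of all genes, 2 of 14 enzymes were so on all 6 arrays. These were FAH, the last enzyme of tyrosine breakdown (0.36, 0.53 and 0.41, 0.43 ± 0.088), and PCK2, the mitochondrial enzyme that makes phosphoenolpyruvate (0.59, 0.75 and 0.38, 0.57 ± 0.18). ARG1, the arginase of the urea cycle, had 0.38 ± 0.28, and CPS1, its entry enzyme, had 1.02, 0.41 and -0.50, which crosses 0. The transcription factors that set the identity of liver cells were split, 5 positive of 9, with FOXA2 at 0.20 ± 0.069, CEBPA at -0.13 ± 0.43 and FOXA1 at -0.27 ± 0.13 (SD, n = 3). None of them was of a single sign on all 6 arrays, beside 9.85% of all genes.

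**Figure D3:**
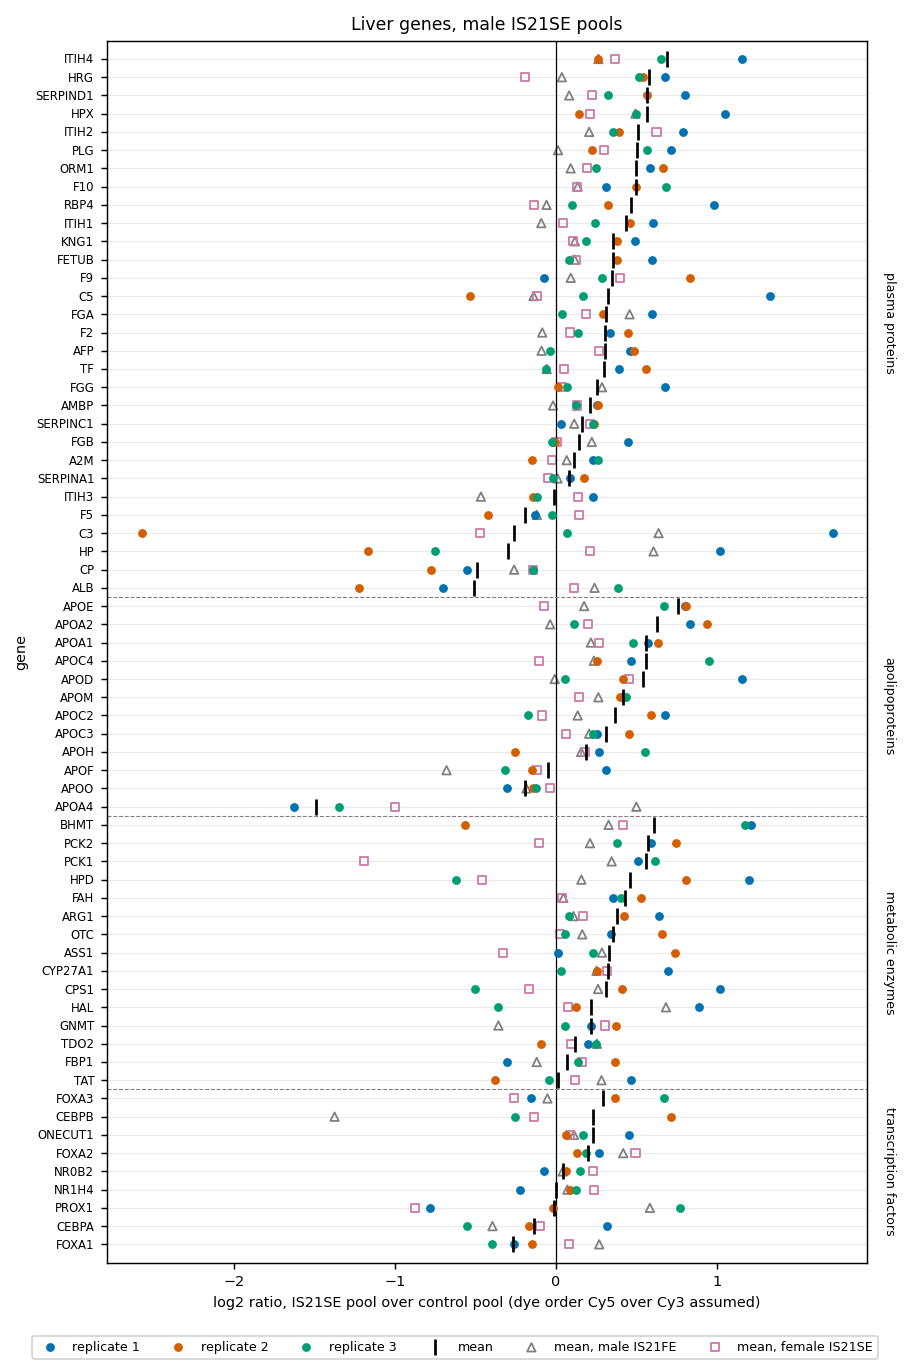
Log2 ratio (x axis) of the 66 liver genes tested (y axis), grouped by role and ordered by mean. Filled points are the 3 replicates of male IS21SE pools, bars their mean, and open symbols the means of the 2 other groups; most bars of plasma proteins, apolipoproteins and enzymes lie above 0, with ALB, CP and APOA4 at the lower end of their groups.

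Lipocalins, a family of small carriers of lipids and odorants, include 5 genes already counted with the liver. Of 8 tested 7 were positive, 6 of them on all 6 arrays beside 5.82% of all genes, and the median was 0.44. Besides SAL1 and ORM1 they held C8G, the lipocalin of complement factor 8 (0.23, 0.33 and 0.29, 0.29 ± 0.052), AMBP (0.21 ± 0.075) and RBP4, the retinol carrier (0.98, 0.32 and 0.10, 0.47 ± 0.46), and LCN15 had -0.079, 0.11 and -3.08, with its negative mean set by replicate 3. The 2 probes of LCN15 had -1.34 and 0.49. SAL1 had 0.64 ± 0.65 in male IS21FE and -0.079 ± 0.26 in female IS21SE pools (SD, n = 3). The difference between male and female IS21SE was 2.58 for SAL1 and 0.83 for APOE (limma adjusted p = 0.444 for both), the lowest adjusted p of that comparison. Genes of the trophoblast and the endometrium, which embryo samples can carry along as surrounding tissue, were positive in 5 of 15, with a median of -0.029 and replicate medians from -0.11 to 0.065. The median of the list was -0.28 from the arrays with IS21SE RNA in Cy5 and 0.19 from the exchanged arrays. Of the other endometrial genes ACP5, uteroferrin, the iron carrier of the pig uterus, had 1.15, 0.35 and 2.13 (1.21 ± 0.89), ESR1, the estrogen receptor, had 0.73 ± 0.47 with 3 of 6 arrays positive, SPP1, osteopontin, had -0.52 ± 0.50, and MUC1, a surface mucin of the uterine lining, had -0.67, -1.20 and -1.32 (-1.06 ± 0.34), which was 0.19 from the arrays with control RNA in Cy5 alone. The part of such tissue in the SAL1 ratio was not tested.

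Genes of red blood cells were positive in 19 of 24, with a median of 0.14. Past the unadjusted threshold were 4 positive and 0 negative genes, beside 4.78% and 4.12% of all genes. The positive ones numbered 3 without replicate 1, 2 without replicate 2 and 1 without replicate 3. Heme synthesis and iron supply were positive in all 10 genes tested. ALAS2, the first enzyme of heme synthesis in red cells, had 0.52, 0.46 and 0.53 (0.50 ± 0.036, SD, n = 3). FECH, ferrochelatase, which puts the iron into heme, had 0.35, 0.32 and 0.51 (0.40 ± 0.10), and UROD, a middle step, had 0.22, 0.26 and 0.23 (0.24 ± 0.018). These 3 enzymes were positive on all 6 arrays with replicates close together. TFRC, the transferrin receptor, had 0.14 ± 0.26 and FTH1, a ferritin chain, 0.012 ± 0.056. Globins were split: HBM had 0.25, 0.61 and 0.61, and the embryonic globins HBE1 and HBZ had -0.17 ± 0.38 and -0.32 ± 0.98. KLF1, the erythroid transcription factor, had 0.24 ± 0.095, and EPB42, of the red cell membrane, 0.28 ± 0.13. The median over the red cell genes was 0.082 in male IS21FE and 0.13 in female IS21SE pools. In the difference from either 0 of 24 genes passed the unadjusted threshold, beside 5.95% and 8.03% of all genes. UROD had 0.22 ± 0.052 in male IS21FE and 0.21 ± 0.33 in female IS21SE pools, values much like those of male IS21SE. Without replicate 3 the median was 0.073, and without replicate 2 it was 0.23.

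Endothelial receptors and markers were positive in 9 of 12 genes and angiogenic factors in 5 of 12. Next to ENG, the receptor gene TIE1 had 0.75 and 0.35 in replicates 2 and 3, ESAM, an adhesion molecule, had 0.037, 1.06 and 0.44, and VEGFA, the main growth factor of vessels, had 0.30, 0.38 and 0.67 (0.45 ± 0.19). The 3 probes of VEGFA ran from -0.0095 to 1.90. ANGPT2, which loosens vessel walls, was negative on all 6 arrays (-0.25 ± 0.22, SD, n = 3). ENG had -0.022 ± 0.23 in male IS21FE and -0.27 ± 0.29 in female IS21SE pools. Blood immune cells had 15 positive genes of 22 and a median of 0.24, which was -0.13 without replicate 3, with 8 of 18 genes positive. Of its members C1QC, a chain of the first complement component made by macrophages, was positive on all 6 arrays (0.43 ± 0.19). SPI1, the myeloid transcription factor, was measured in 2 replicates with 0.81 and 0.56 in replicates 2 and 3. Among swine histocompatibility genes SLA-3, a class I gene, had -0.94, -1.53 and -0.18 (-0.89 ± 0.68) and SLA-DMB, of class II loading, 1.03, 0.88 and -0.053. Class I genes are near-identical copies of each other, so the probe may read several of them.

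In the kidney list 10 of 19 genes were positive. Genes of the tubule pointed both ways. Next to MIOX, SLC22A6, the organic anion transporter of the proximal tubule, had 0.74, 0.34 and 0.35 (0.48 ± 0.22, SD, n = 3), whereas CALB1 of the distal tubule and SLC12A1, the salt transporter of the loop of Henle (-0.70, -0.36 and -0.17, -0.41 ± 0.27), were negative on all 6 arrays. PAX2, a transcription factor of the early nephron, had 0.57, 0.30 and 0.12 (0.33 ± 0.23). In the gonad list 13 of 22 genes were positive, and 9 of 20 without replicate 2. INSL3, the Leydig cell hormone of testis descent, had 1.09, 2.52 and 0.93 (1.51 ± 0.88) and was positive on all 6 arrays. AMH, the Sertoli cell hormone that removes the Mullerian ducts, had 0.67, 0.23 and 0.20 (0.37 ± 0.26), and INHBA, an activin subunit, -0.26 ± 0.036. The 2 probes of INHBA had -0.53 and 0.012. INSL3 had 0.39 ± 1.07 in male IS21FE pools. Steroid hormone synthesis had 9 of 12 genes positive, but 5 of 12 from the arrays with IS21SE RNA in Cy5 (median -0.087) and 11 of 12 from the exchanged arrays (median 0.36). Its member HSD17B2, which inactivates estradiol and testosterone, had 0.70, 0.45 and 0.60 (0.58 ± 0.13). Epithelial genes had 10 of 13 positive, with the keratin KRT8 at 0.37, 0.37 and 0.32 (0.35 ± 0.031).

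Genes of the cilium and centrosome lay mostly on the negative side. The cilium is an antenna of the cell surface that receives signals such as hedgehog, and its parts are carried in by intraflagellar transport. Of 54 genes tested 36 were negative, with a median of -0.065, and 10 negative and 3 positive genes were past the unadjusted threshold, beside 4.12% and 4.78% of all genes. Of 49 measured on all 6 arrays 7 were negative on all 6, beside 4.02%, and 1 was positive on all 6, beside 5.82%. IFT74, a subunit of the anterograde transport complex, had -0.50, -0.41 and -0.58 in replicates 1, 2 and 3 (-0.50 ± 0.085, SD, n = 3). Further subunits of that complex were IFT80 (-0.21, -0.33 and -0.26, -0.27 ± 0.060), IFT88 (-0.082, -0.46 and -0.44, -0.33 ± 0.21), IFT81 (-0.30 ± 0.25) and IFT57 (-0.23 ± 0.11). IFT74, IFT80, IFT88 and IFT57 were negative on all 6 arrays, and IFT81 on 5. DYNC2H1, the motor of the return transport, had -0.39 ± 0.18, and TTC21B, of the retrograde complex, had -1.01, -1.80 and -0.41 with 2 of 6 arrays positive. CEP63, of the centriole, had -0.31, -0.47 and -0.19 (-0.32 ± 0.14), and CEP135, also a centriole protein, -0.15, -1.44 and -1.18 (-0.92 ± 0.68). Positive members were CEP164, of the centriole appendages (0.45, 0.34 and 0.54, 0.44 ± 0.099), and the axonemal dynein genes DNAH7 (0.41, 0.41 and 0.37, 0.40 ± 0.025) and DNAH9, with 1.70 and 1.74 in replicates 1 and 2. The retrograde transport genes IFT122 and IFT140 had 1.88, -0.31 and -0.43 and -0.054, -0.38 and 0.34, with no common sign. CEP164 had -0.17 from the arrays with IS21SE RNA in Cy5 alone, so its sign depended on the dye. Its 4 probes ran from -0.18 to 1.75, and the 4 probes of DNAH7 from -0.20 to 0.56.

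The list was less even across the arrays than those of heart and liver. Its median was -0.19 from the arrays with IS21SE RNA in Cy5 and -0.035 from the exchanged arrays. With each replicate left out in turn it was -0.12, -0.093 and -0.13, and the negative genes past the unadjusted threshold numbered 5 without replicate 1, 2 without replicate 2 and 5 without replicate 3. Male IS21FE pools had a median of 0.015 and female IS21SE pools 0.063. The difference from male IS21FE passed the unadjusted threshold in 5 of 54 genes, all lower in male IS21SE, beside 5.95% of all genes. That from female IS21SE did so in 6 lower and 3 higher genes of 52, beside 8.03%. IFT88 had 0.25 ± 0.16 in male IS21FE and 0.079 ± 0.19 in female IS21SE pools (SD, n = 3).

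**Figure D4:**
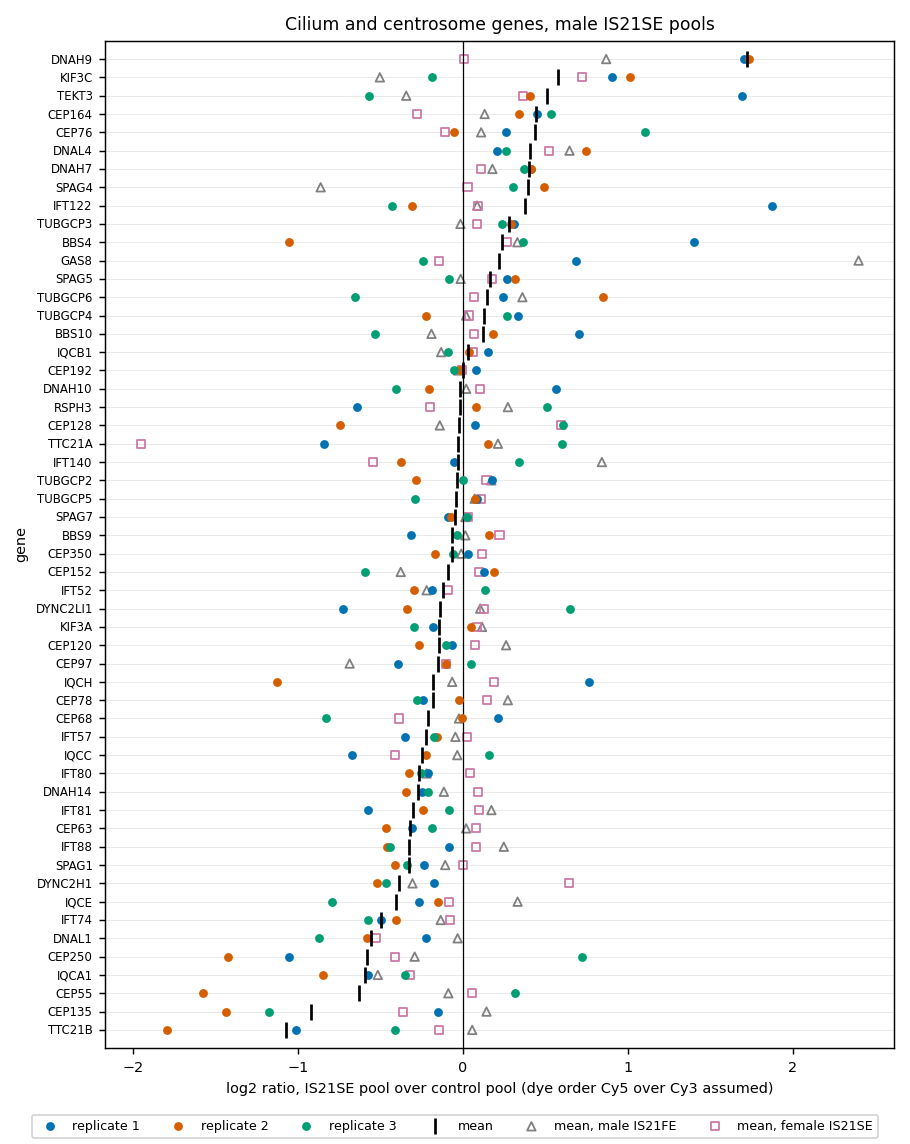
Log2 ratio (x axis) of the 54 cilium and centrosome genes tested (y axis), ordered by mean. Filled points are the 3 replicates of male IS21SE pools, bars their mean, and open symbols the means of the 2 other groups; 36 bars lie below 0, and IFT74, IFT80 and CEP63 keep all 3 replicates below 0 while DNAH7 and CEP164 keep theirs above it.

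The list of tRNA, rRNA and RNA methyltransferases, which holds N6AMT1 although its known substrate in humans is a protein, was negative in 16 of 22 genes, with a median of -0.13. METTL6, a tRNA methyltransferase, had -0.31, -0.34 and -0.19 (-0.28 ± 0.080, SD, n = 3), and TRMT1 had 0.55 ± 0.64. Zinc finger genes, most of them repressors of transcription, were negative in 84 of 146 genes (median -0.057), with ZNF133 at -0.53, -0.61 and -0.45. The median of the zinc finger genes was -0.19 from the arrays with IS21SE RNA in Cy5 and 0.012 from the exchanged arrays, where 76 of 146 were positive. Among chromatin genes SIRT1, a deacetylase that senses the energy state of the cell, had -0.36, -0.36 and -0.40 (-0.37 ± 0.022), and SIRT2, the cytoplasmic family member, had 0.46, 0.056 and 0.41 (0.31 ± 0.22). The 2 probes of SIRT1 had opposite signs, at -0.97 and 0.22. The list as a whole had 22 positive of 52 genes.

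Imprinted genes, which are read from the copy of a single parent and often act on growth, were positive in 16 of 24. DLK1, a paternally expressed growth regulator, had 0.44, 0.50 and 0.38 (0.44 ± 0.059, SD, n = 3), NNAT, neuronatin, had 0.30, 0.59 and 0.25 (0.38 ± 0.19), and both were positive on all 6 arrays. PPP1R9A, a neuronal scaffold, had -0.15, -0.53 and -0.85 (-0.51 ± 0.35), and UBE3A, a ubiquitin ligase, had -0.43 ± 0.36. The 2 probes of UBE3A had -0.97 and 0.10. DLK1 had 0.020 ± 0.12 in male IS21FE and 0.19 ± 0.038 in female IS21SE pools. The growth hormone and IGF axis had 9 positive of 21 genes, and 11 and 13 in the separate dye orders. PIK3R2, a regulatory subunit of phosphoinositide kinase, had 0.74, 0.45 and 0.37 (0.52 ± 0.19), and GHR, the growth hormone receptor, -0.33, -0.41 and -0.20 (-0.31 ± 0.11).

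Signalling pathways of the embryo showed single genes rather than whole lists. Ligands of the TGF-beta family were positive in 13 of 18 genes, with BMP7, a ligand for kidney and eye development, at 0.64, 0.41 and 0.73 (0.59 ± 0.16) and GDF9, known from the ovary, at 0.49, 0.66 and 0.21 (0.45 ± 0.23). Their receptors, SMAD proteins and inhibitors were negative in 17 of 25, and 5 of 25 were negative on all 6 arrays, beside 4.02% of all genes, among them LTBP1, which stores latent TGF-beta in the matrix (-0.83, -0.57 and -0.23, -0.54 ± 0.30). In the NOTCH and hedgehog list HEY2, a NOTCH target that in mice patterns the ventricle, had 0.75, 1.26 and 0.14 (0.72 ± 0.56), and RBPJ, the DNA-binding partner of NOTCH, had -0.44, -0.51 and -0.13 (-0.36 ± 0.20). The 2 probes of HEY2 had 0.35 and 2.37, and those of BMP7 0.20 and 0.99. In the WNT list GSK3A, a kinase that restrains the pathway, had 0.68, 0.51 and 0.39 (0.53 ± 0.15), and WNT2B, a ligand, had -0.76, -1.70 and -0.95 (all SD, n = 3). In the retinoic acid list RXRA, a nuclear receptor, had 0.86, 1.49 and 0.94 (1.10 ± 0.34) and was positive on all 6 arrays. Among homeobox genes HOXB5 had 1.19, 1.01 and 0.54 (0.91 ± 0.33), and 10 of 21 were positive. The FGF list, with 11 of 19 positive, and the neural list, with 8 of 18 positive, had no member past the unadjusted threshold, beside 8.9% of all genes. The FGF median was -0.048 from the arrays with IS21SE RNA in Cy5 and 0.13 from the exchanged arrays. The neural median was 0.035 and -0.013 in the same order.

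Of the extracellular matrix 21 of 35 genes were negative, but without replicate 3 19 of 35 were positive. LAMB1, a laminin chain of basement membranes, had -0.35, -0.27 and -0.27 (-0.30 ± 0.044), and COL1A2, a chain of the collagen of skin and bone, had -0.43, -0.14 and -0.32 (-0.30 ± 0.15), both negative on all 6 arrays. BGN, the proteoglycan biglycan, had 0.94, 0.41 and 0.37 (0.57 ± 0.32), and FBLN5, a fibulin of elastic fibres, had 0.30, 0.35 and 0.23 (0.29 ± 0.063, SD, n = 3), both positive on all 6.

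Among genes of energy metabolism glycolysis was positive in 17 of 21 genes, with the glucose transporter SLC2A1 at 0.48, 0.34 and 0.86 (0.56 ± 0.27) and the enolase ENO1 at 0.43, 0.34 and 0.41 (0.40 ± 0.048), both positive on all 6 arrays. HIF1A, the hypoxia-inducible factor that drives glycolytic genes, had -0.80, -0.83 and -0.053 (-0.56 ± 0.44). The glycolysis genes had medians of -0.012, 0.29 and -0.078 in replicates 1, 2 and 3 on the arrays with IS21SE RNA in Cy5 and of 0.27, 0.23 and 0.21 on the exchanged arrays. With hypoxia genes included, the list was positive in 19 of 38 genes on the former (median -0.026), and without replicate 2 its median was 0.021 in place of 0.12. Glycolysis genes had medians of 0.13 here, -0.12 in male IS21FE and 0.036 in female IS21SE pools. Cholesterol and fatty acid synthesis had 16 of 22 genes positive, with MVK, mevalonate kinase, at 0.61, 0.18 and 0.56 (0.45 ± 0.23) and DGAT1, of triglyceride synthesis, at 0.21, 0.37 and 0.21 (0.26 ± 0.096), whereas HMGCS1, the entry enzyme of the mevalonate pathway, had -0.34, -0.27 and -0.38 (-0.33 ± 0.058, SD, n = 3). Fatty acid oxidation had 9 of 17 genes positive, and ETFDH, which passes its electrons on, had -0.27, -0.28 and -0.24 (-0.26 ± 0.021). Solute carriers were positive in 105 of 181 genes. Their positive and negative genes past the unadjusted threshold numbered 16 and 5, beside 4.78% and 4.12% of all genes. With a replicate left out these counts were 8 and 6 without replicate 1, 5 and 7 without replicate 2, and 9 and 6 without replicate 3. The arrays with IS21SE RNA in Cy5 gave 12 and 12, with 89 of 181 genes positive. Members past the threshold were SLC22A7, an organic anion transporter of the liver (1.06, 0.59 and 0.18), SLC25A1, the mitochondrial citrate carrier (0.41, 0.32 and 0.26), and SLC4A7, a bicarbonate transporter (-0.46, -0.24 and -0.41).

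Housekeeping machines of the cell stayed close to 0. Cytosolic ribosomal protein genes had a median of 0.055 with 33 of 47 positive. None of them was past the unadjusted threshold, beside 8.9% of all genes. In the fit to single arrays with a dye term 4 of them were under an unadjusted 0.05, all positive. Mitochondrial ribosomal protein genes had a median of 0.012 with 31 of 55 positive, and nuclear genes of the respiratory chain 0.055 with 33 of 55. The proteasome had 0.0018 with 17 of 34, and the cell cycle and replication list 0.038 with 35 of 62. The medians of the mitochondrial ribosome were -0.084 from the arrays with IS21SE RNA in Cy5 and 0.12 from the exchanged arrays, and those of the proteasome -0.068 and 0.12. In the same order they were 0.11 and -0.0060 for the cytosolic ribosome, with 36 and 21 of 47 genes positive. For the respiratory chain they were -0.022 and 0.074. Replicate 1 differed in sign from the others for 3 of these lists, at -0.021 for the cytosolic ribosome, -0.10 for the mitochondrial ribosome and -0.076 for the respiratory chain. Single members past the unadjusted threshold were NDUFB8, of complex I (0.26, 0.26 and 0.54, 0.35 ± 0.16), MRPL38 (0.35 ± 0.098), PSMG4, a proteasome assembly factor (0.34 ± 0.082), and E2F1, a transcription factor of the start of replication (0.44, 0.23 and 0.49, 0.39 ± 0.14). Stress-related lists were mixed. Glutathione and thioredoxin genes included GSTZ1 (0.42, 0.57 and 0.49, 0.49 ± 0.073) and TXNRD2 (0.47 ± 0.26), both positive on all 6 arrays, among 18 positive of 32. The arrays with IS21SE RNA in Cy5 gave 14 positive (median -0.081) and the exchanged arrays 24 (median 0.12). HSPB1, a small heat shock protein, had 0.67, 0.46 and 0.26 (0.46 ± 0.21), while the chaperone list had 41 of 91 positive. The medians of the chaperone list by dye order were -0.051 and 0.032. Genes of apoptosis and p53 were negative in 10 of 13, and early response and glucocorticoid genes in 8 of 11. Neither list had a member past the unadjusted threshold, beside 8.9% of all genes.

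**Figure D5:**
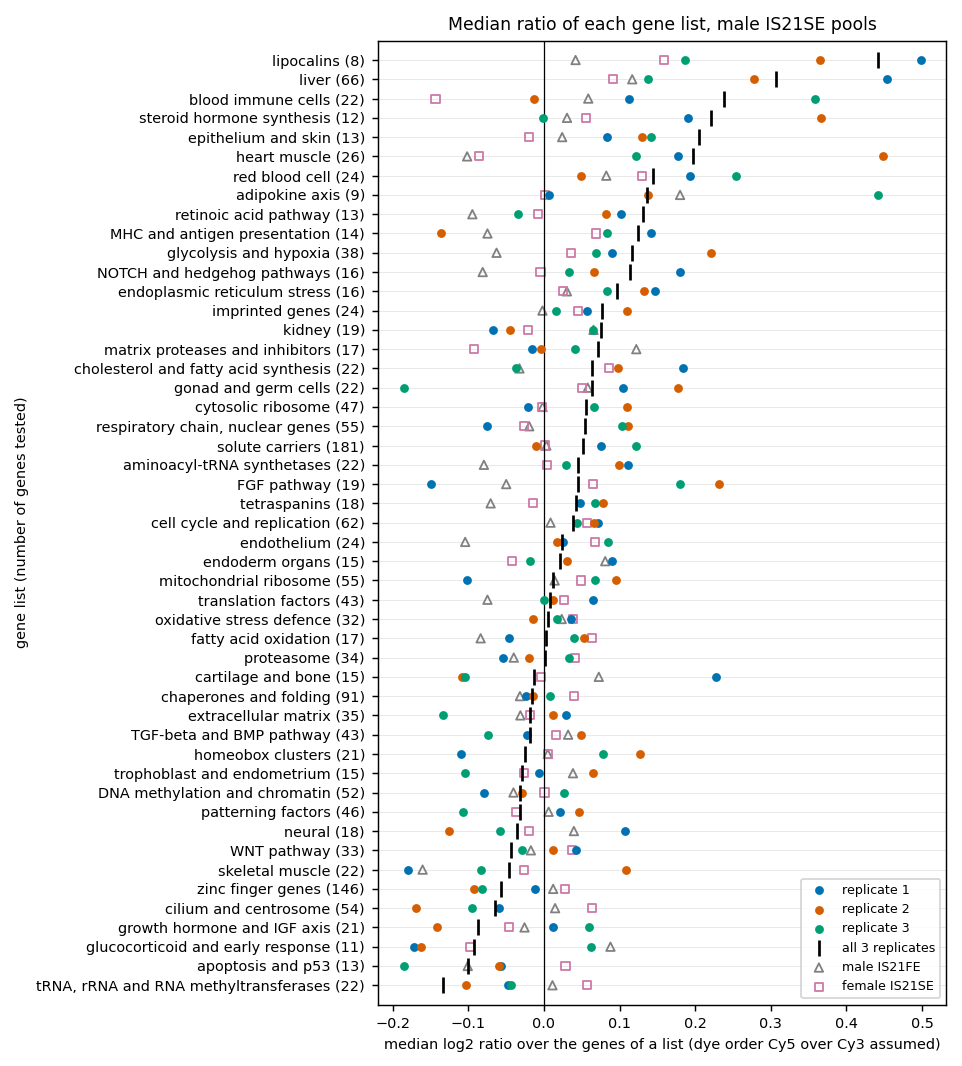
Median log2 ratio (x axis) of each gene list with at least 8 genes tested (y axis, number of genes in brackets), ordered by the median of male IS21SE means. Filled points are the medians in the 3 replicates, bars the median of the means, and open symbols the medians in the 2 other groups; liver, heart muscle, lipocalins and red blood cell have all 3 replicates above 0, and the cilium and centrosome list all 3 below 0.

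The genes named above by their small p were also set beside the other groups, where that choice was not made. Male IS21FE pools had ratios of the opposite sign for IFITM1 (0.88 ± 0.48 against -0.98 ± 0.24), N6AMT1 (0.70 ± 0.30), PHTF2 (0.62 ± 0.17) and CLK1 (0.32 ± 0.14, SD, n = 3, except n = 2 for N6AMT1). They had ratios much like those of male IS21SE for TGFBI (0.49 ± 0.073), TROVE2 (-0.49 ± 0.22) and MIOX (0.48 ± 0.19). Female IS21SE pools had ratios near 0 for SAL1, APOE, CALB1 (0.0018 ± 0.44) and MIOX (-0.045 ± 0.12). Their means lay on the side of male IS21SE for ARHGAP8 (-0.55 ± 0.93), TGFBI (0.40 ± 1.17) and ARMC5 (0.49 ± 0.82), with a wide spread. They lay on the opposite side for EFNA3 (0.26 ± 0.76) and CLK1 (0.14 ± 0.31, all SD, n = 3). The difference between male IS21SE and male IS21FE was -1.85 for IFITM1 and -1.13 for PHTF2 (limma adjusted p = 0.626 for each). The lowest adjusted p was 0.626 in the comparison with male IS21FE and 0.444 in that with female IS21SE, so no difference between these groups is shown for any gene.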

How the data were processed

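Each array's deposited column holds log ratios, which the authors deposited already normalized and which are taken as log2, since they run from -9.34 to 9.85. The authors' log base, background correction, normalization and filter were not given in the sources used here. Per the labels' protocols, 200 ng of RNA was labelled with a low input two-colour kit. Of 43749 probes 18109 had a single gene symbol and 25640 did not. The 18109 probes gave 11905 symbols, 877 of them only locus identifiers. Symbols were updated for 116 probes by accession and 222 by synonym (2657 of 4738 accessions were found). Arrays with control RNA in Cy5 were multiplied by -1, both arrays of a replicate were averaged if measured, and then the probes of a gene, so different probes can stand behind different replicates.

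Genes with at least 2 measured replicates in both male groups were fitted with limma 3.58.1 in R 4.3.3 as group means on the 6 male replicates, moderated with eBayes, with Benjamini-Hochberg adjustment over all genes and a threshold of 0.05. The spread was shared among male groups only, because male arrays had wider SDs (0.937 to 1.33) than female arrays (0.620 to 0.890). The difference between sexes used all 12 replicates. Named genes were those past the adjusted threshold, the 15 positive and 15 negative genes with the smallest p among genes of a single sign on all 6 arrays, up to 4 members of each list with the smallest p, and members opposite in sign to their list. Further members are named for their role, chosen after their values were seen. The comparison, its members and the gene lists were chosen with earlier results of these data known, symbol patterns of 4 lists (FGF, solute carriers, oxidative stress, chaperones) were tightened and a list dropped after values were seen, and lists are described without a test. Alternatives covered the dye, the scale, the probes, the filter, the moderation and each replicate.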

Additional observations from a re-analysis of the deposited data

How the results depend on the processing

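The number of genes under an adjusted p of 0.05 stayed at 0 under the alternatives run, except for 2 genes, APOE and SAL1, with single arrays, a dye term and the replicate as a random block (limma adjusted p = 0.0381 for each). The 838 genes under an unadjusted 0.05 became 2651 of 29960 with probes kept apart, where more features were tested, and 532 to 593 with a replicate left out; the other alternatives gave 802 to 1195. With the replicate number shared by female and male pools as a replicate block there were 1074, and 836 in place of 738 for the difference between sexes. The labels do not say whether a number marks the same sow. Deviations of same-numbered pools correlated at -0.025 to 0.048 in IS21SE and 0.015 to 0.16 in IS21FE, and not every pool correlated best with its own number, so the numbers were not taken as pairs. Leaving out a replicate gave 410 to 484 in place of 560 genes for the difference from male IS21FE, and 599 to 651 for that between sexes. Of 177 genes named, 23 changed sign under a single-dye or left-out-replicate setting, and the cause was not tested. From arrays with IS21SE RNA in Cy5 alone APOD had -0.22, CEP164 -0.17, CORIN -0.091 and INHBA 0.13. From arrays with control RNA in Cy5 alone CEBPA had 0.12, EIF1AY -0.011, FTH1 -0.077, IFT140 0.20, MUC1 0.19, RYR1 0.32, TBX5 2.01, TCAP 0.024, TTC21B 0.012 and UBE3A 0.016. With a replicate left out the mean ran from -1.25 to 0.90 for C3, -0.36 to 0.074 for CEBPA, -0.046 to 0.72 for CPS1, -0.065 to 0.044 for EIF1AY, -0.014 to 0.22 for FGB, -0.020 to 0.034 for FTH1, -0.30 to 0.049 for HBE1, -0.80 to 0.18 for HBZ, -0.96 to 0.13 for HP, -0.37 to 0.78 for IFT122, -0.22 to 0.14 for IFT140, -1.58 to 0.016 for LCN15 and -0.13 to 0.45 for NKX2-5. None of these genes had an adjusted p under 0.05 in any setting run. List medians moved by more than the SD of the 3 replicate medians in 61 cases under an alternative and by less in 755. Signal over background was not used here, so dim probes could not be filtered.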

Other observations

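Families sharing the start of a symbol, picked after their values were seen and given without a test, leaned to either side. Peroxins, which build peroxisomes, were positive in 1 of 10 genes (median -0.18), and PEX7, the import receptor for peroxisomal enzymes, had -0.43, -0.24 and -0.29 in replicates 1, 2 and 3. Phosphodiesterases were positive in 5 of 14 (median -0.21), with PDE3A at -0.22, -0.51 and -0.20. Kinesins, motors that run along microtubules, were positive in 8 of 27 (median -0.10), and KIF27, which in mice is needed for motile cilia, had -0.46, -0.74 and -0.28. Dual specificity phosphatases were positive in 2 of 10 (median -0.24), with DUSP11, an RNA phosphatase, at -0.45, -0.39 and -0.17. On the other side, symbols starting with ZDHHC were positive in 12 of 17 genes (median 0.18), with KLF in 8 of 12 (0.17) and with BCL in 9 of 15 (0.15). Medians by dye order were not taken for any of these families. By comparison, the mean ratio was above 0 in 49.1% of all genes.

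Some genes had large ratios on which the replicates differed. TRIB3, a stress-induced pseudokinase, had 5.35, 0.19 and 1.42. ND1, a mitochondrially encoded subunit of complex I, had 1.35, 0.53 and 0.061. These ratios did not pass the unadjusted threshold for TRIB3 or ND1.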
